A study of Mus musculus with 12 samples.

Results

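Blnk, Prrg1, Cul4b, Galnt18 and Inpp4b are 5 of the 31053 genes in a single-nucleus RNA-seq matrix of the mouse motor cortex. They were chosen by their measured difference between trained and control mice in intratelencephalic neurons of layer 5 (L5 IT), so that difference is given as a description with no test. L5 IT nuclei were those with at least 2 UMIs of Slc17a7, at most 1 UMI of Gad1 and Gad2 together, and at least 3 UMIs summed over Deptor, Rxfp2, Rspo2 and Dkkl1. A UMI is 1 counted RNA molecule. By that rule 3810 of 49292 kept nuclei were L5 IT.

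The tissue came from the forelimb part of the right motor cortex (the caudal forelimb area) of 6 mice aged 13 weeks. Trained mice (2, 4 and 6) and control mice (1, 3 and 5) all had 1 mL of water per day and took it in the home cage for 10 days. On days 11 to 13 the trained mice earned part of it, head-fixed, by pressing a lever with the left paw in sessions of 100 trials, while the controls stayed on home-cage water. Each mouse is 1 replicate, and the labels give neither strain nor sex. Xist lay between 0.25 and 0.51 CPM in each of the 6 mice and Y-linked genes were present in all of them, in trained and control mice alike. The mice gave 46798359 to 91495029 UMIs and 5265 to 11817 kept nuclei each.

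Intratelencephalic neurons are glutamatergic cells whose axons stay within the telencephalon and reach other cortical areas and the striatum. In layer 5 of motor cortex they lie among extratelencephalic (ET) and near-projecting (NP) neurons, and the layer 6 cells below them include corticothalamic (CT) neurons. The 5 genes were chosen by their training difference and not by a shared pathway. Blnk encodes the B cell linker, an adaptor that joins the kinase Syk to Btk and phospholipase C gamma in B cells. Prrg1 encodes a single-pass membrane protein with a vitamin K-dependent Gla domain. Cul4b encodes a cullin, the scaffold of a family of ubiquitin ligases, and loss of its human counterpart causes X-linked intellectual disability. Galnt18 belongs to the family of enzymes that start mucin-type O-glycosylation, and Inpp4b encodes a phosphatase that removes a phosphate from the lipid PI(3,4)P2.

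In GENCODE M21 on mm10, Blnk lies on the minus strand at chr19:40928927-40994535, Prrg1 on the minus strand at chrX:78449613-78583896, Cul4b on the minus strand at chrX:38533274-38576196, Galnt18 on the minus strand at chr7:111471661-111779977 and Inpp4b on the plus strand at chr8:81342556-82127914. No other gene counted in the matrix overlaps any of the 5. Promoters of 4 members matched the RefSeq table of GRCm38.p6, which covers 250 bases before to 50 bases after each start. The promoters of Blnk (chr19:40994172-40994471, minus strand) and Prrg1 (chrX:78583848-78584147, minus strand) are shown, since these are the members whose trained and control mice did not overlap. Capitals mark the E-box CANNTG, which reads the same on both strands.
Blnk: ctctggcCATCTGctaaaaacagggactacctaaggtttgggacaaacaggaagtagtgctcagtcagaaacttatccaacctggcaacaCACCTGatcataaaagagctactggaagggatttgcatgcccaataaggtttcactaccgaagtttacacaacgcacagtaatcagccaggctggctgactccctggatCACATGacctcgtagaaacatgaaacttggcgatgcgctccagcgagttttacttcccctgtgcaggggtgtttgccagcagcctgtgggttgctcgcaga
Prrg1: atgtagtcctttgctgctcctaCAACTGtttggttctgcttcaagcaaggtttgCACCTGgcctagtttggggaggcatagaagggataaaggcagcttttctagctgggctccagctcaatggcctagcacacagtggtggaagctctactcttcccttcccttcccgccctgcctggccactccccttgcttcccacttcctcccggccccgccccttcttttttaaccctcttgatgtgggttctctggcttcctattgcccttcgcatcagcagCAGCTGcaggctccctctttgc
Each of these windows held 3 matches to CANNTG, a motif found in 72.3% of 32851 promoters of the same length. Neither held the cyclic AMP response element TGACGTCA (1.79% of promoters), its core TGACG (20.8%, which any TGACGTCA also holds) or the AP-1 motif TGANTCA (7.81%) on either strand. A second Prrg1 entry (chrX:78583756-78584055, minus strand), not shown, held 1 match to CANNTG and 0 to the other motifs. A match is a run of letters and no measure of binding.

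Of the 5 genes, Blnk and Prrg1 had all trained mice on one side of all controls in L5 IT nuclei, and Cul4b, Galnt18 and Inpp4b did not. Of the 14240 genes tested there, 5.15% had all trained mice above all controls and 4.33% had all trained mice below them. No gene passed an adjusted p of 0.05 with edgeR's quasi-likelihood test (558 genes, or 3.92%, were under 0.05 before adjustment; DESeq2 gave 5 calls).

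Blnk was higher in trained mice. It stood at 67.6, 55.0 and 58.7 CPM in trained mice 2, 4 and 6, against 34.5, 38.8 and 33.3 CPM in control mice 1, 3 and 5 (CPM is counts scaled to a common library total, with TMM factors). The means were 60.4 ± 6.44 CPM in trained mice and 35.5 ± 2.88 CPM in control mice (SD, n = 3 each). The log2 fold change was 0.77 ± 0.11 (SE). The lowest trained mouse lay above the highest control.

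Prrg1 went the other way. It stood at 33.1, 37.3 and 32.2 CPM in trained mice 2, 4 and 6, against 48.2, 51.3 and 50.8 CPM in control mice 1, 3 and 5. The means were 34.2 ± 2.73 CPM in trained mice and 50.1 ± 1.65 CPM in control mice (SD, n = 3 each). The log2 fold change was -0.55 ± 0.10 (SE). Every trained mouse lay below every control.

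Cul4b, Galnt18 and Inpp4b did not separate the groups. Cul4b stood at 46.7, 61.3 and 43.4 CPM in trained mice 2, 4 and 6, against 35.0, 41.6 and 55.1 CPM in control mice 1, 3 and 5, a log2 fold change of 0.21 ± 0.18 (SE). Control mouse 5 lay above trained mice 2 and 6. The value rests on single mice: leaving out control mouse 5 gave 0.40, leaving out control mouse 1 gave 0.06, and leaving out trained mouse 4 gave 0.05. Galnt18 stood at 189, 169 and 179 CPM in the trained mice, against 267, 183 and 186 CPM in the controls, a log2 fold change of -0.25 ± 0.14 (SE). Control mouse 1 was far above the rest, and without it the log2 fold change was -0.05. It was -0.42 with nuclei of another glutamatergic class left out and -0.41 with median UMIs per nucleus as a covariate. Inpp4b stood at 63.2, 47.0 and 80.9 CPM in the trained mice, against 105, 56.0 and 80.5 CPM in the controls, a log2 fold change of -0.34 ± 0.23 (SE). It too was highest in control mouse 1, and without that mouse the log2 fold change was -0.11. Trained mouse 4 was the lowest, and without it the value was -0.17, while it was -0.55 without trained mouse 6 and -0.55 without control mouse 3.

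**Figure D1:**
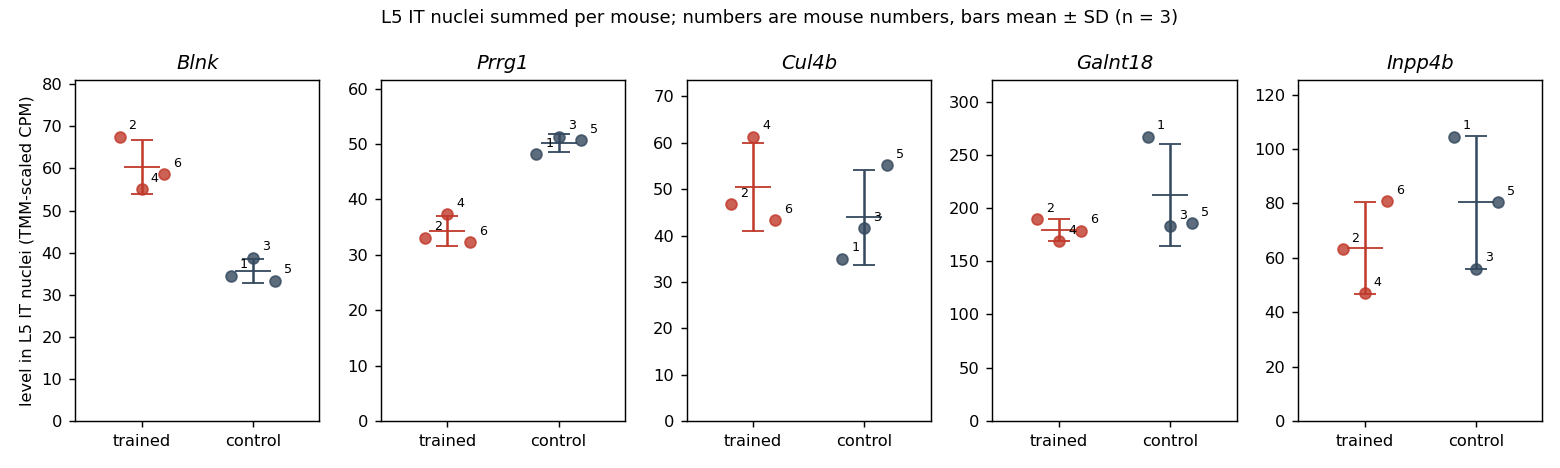
Level of each gene in L5 IT nuclei (vertical axis, TMM-scaled CPM) for 3 trained mice on the left and 3 control mice on the right of each panel, with mouse numbers beside the points and bars for the mean ± SD. Blnk runs from 55.0 to 67.6 CPM in trained mice and from 33.3 to 38.8 CPM in control mice, Prrg1 from 32.2 to 37.3 CPM in trained mice and from 48.2 to 51.3 CPM in control mice, and the other 3 panels overlap.

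The rule draws a broad set of nuclei. Of the 3810 nuclei, 2473 (64.9%) also met the marker rule of another glutamatergic class, most often L4/5 IT (32.3%) or L6 IT (28.0%). Deptor had a UMI in 78.7% of them, Rspo2 in 62.4%, Rxfp2 in 38.5% and Dkkl1 in 34.9%. At the threshold, 1024 nuclei had a marker sum of exactly 3 and 1687 glutamatergic nuclei had a sum of exactly 2. Median UMIs per nucleus in the class were 12235 to 17412 over the mice.

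The same difference was read within subsets of these nuclei, as a description only, since it chose the genes. In the 1337 L5 IT nuclei that met no other class rule, Blnk stood at 101, 72.4 and 80.6 CPM in trained mice 2, 4 and 6, against 39.5, 51.1 and 49.4 CPM in control mice 1, 3 and 5. Prrg1 there stood at 36.8, 44.5 and 33.8 CPM in the trained mice, against 62.7, 56.9 and 74.3 CPM in the controls. Galnt18 stood at 117, 121 and 131 CPM in the trained mice, against 199, 143 and 155 CPM in the controls. The groups of these 3 genes were apart in those nuclei, and the share of all genes of which that was so was not computed. Split instead by the marker with most UMIs, the log2 ratio of Blnk was 0.85 in nuclei led by Deptor, 0.81 by Rxfp2, 0.41 by Rspo2 and 1.27 by Dkkl1, with overlapping groups in the last (ratios of mean plain CPM, trained over control). The Dkkl1 value rests on 21, 24 and 5 Blnk UMIs in the trained mice, against 3, 11 and 3 in the controls. For Prrg1 the log2 ratio was -0.56 by Deptor, -0.42 by Rxfp2, -0.98 by Rspo2 and -0.15 by Dkkl1, with overlapping groups for Rxfp2 and Dkkl1. For Galnt18 it was -0.39 by Deptor, -0.36 by Rxfp2, -0.04 by Rspo2 and -0.41 by Dkkl1, with overlapping groups for Rxfp2 and Rspo2. In L5 IT nuclei that also met another rule, Blnk was at 0.55 for L4/5 IT, 0.56 for L6 IT and 1.48 for L5 ET. The L5 ET value rests on 47, 17 and 8 Blnk UMIs in the trained mice, against 25, 5 and 1 in the controls. The groups of Blnk overlapped for L2/3 IT (0.34), L6 CT (0.73) and L5/6 NP (0.14). Prrg1 was at -0.52 for L4/5 IT and -0.55 for L6 IT. Its groups overlapped for L2/3 IT (-0.09), L6 CT (-0.07), L5/6 NP (0.03) and L5 ET (-0.32). Those of Galnt18 overlapped in each of these. Cul4b groups were apart for L4/5 IT (log2 ratio of 0.63) and overlapped for the other rules named here. For L4/5 IT Cul4b stood at 28.4, 27.2 and 24.1 plain CPM in the trained mice, against 18.0, 18.4 and 15.0 in the controls. Inpp4b groups were apart in nuclei with a marker sum of 6 or more (-0.46) and overlapped at lower sums. The share of all genes with groups apart was not computed for any subset.

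With each nucleus thinned to 2000 UMIs, a Blnk UMI was found in 16.0%, 8.92% and 11.0% of L5 IT nuclei of trained mice 2, 4 and 6, against 6.63%, 8.11% and 6.93% in control mice 1, 3 and 5. Without thinning the shares were 49.9%, 40.1% and 42.9% in the trained mice and 33.5%, 30.8% and 31.3% in the controls. In Pvalb interneurons, where Blnk is near absent, at most 0.513% of thinned nuclei of a mouse had a Blnk UMI, at median depths of 8549 to 10836 UMIs. The lowest thinned share of a trained mouse and the highest of a control mouse were close, and these shares restate the difference that chose the gene.

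Other cells in the droplets were looked at through their markers. Microglia, the class with most Blnk, gave 9.30, 9.83 and 11.7 CPM of Csf1r, Cx3cr1 and C1qa together in L5 IT nuclei of trained mice 2, 4 and 6, against 11.4, 14.5 and 11.5 CPM in control mice 1, 3 and 5. The same 3 genes gave 4563 to 6541 CPM in microglia, and none of them was at 0 in L5 IT nuclei. Markers of oligodendrocytes, which have most Prrg1, gave 8.64 to 10.0 CPM in trained mice and 7.96 to 10.1 CPM in control mice. The microglial sums of the groups overlapped, as did those of oligodendrocytes, and their part in the differences was not tested.

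L5 IT nuclei made up 9.58%, 8.04% and 8.28% of kept nuclei in trained mice 2, 4 and 6, against 8.60%, 6.26% and 6.47% in control mice 1, 3 and 5. The difference of 1.52 percentage points gave p = 0.3 in a two-sided exact permutation test over mice, whose smallest possible p with 3 against 3 is 0.1.

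Outside L5 IT, no member passed the test, though Blnk and Prrg1 kept their directions. In all other kept nuclei Blnk stood at 22.8, 25.6 and 25.6 CPM in trained mice 2, 4 and 6, against 17.7, 19.3 and 18.9 CPM in control mice 1, 3 and 5. Its log2 fold change was 0.41 ± 0.09 (SE) with an adjusted p of 1.00 by edgeR's quasi-likelihood test. Prrg1 stood at 19.4, 20.7 and 18.4 CPM in the trained mice, against 22.5, 23.1 and 24.4 CPM in the controls, a log2 fold change of -0.26 ± 0.09 (SE) with the same adjusted p. Neither gene's groups overlapped, which was so for 4.72% of the 19197 genes on the higher side and 3.67% on the lower side. No gene passed there (601, or 3.13%, were under 0.05 before adjustment; DESeq2 gave 5 calls). In nuclei with 0 UMIs of the 4 L5 IT markers the log2 fold changes were smaller, at 0.24 ± 0.13 for Blnk and -0.13 ± 0.10 for Prrg1 (SE). The difference between L5 IT and other nuclei was not tested. Blnk over all nuclei was also known when the genes were chosen, so these values are no independent support.

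Blnk was detected well enough to fit in 5 classes besides L5 IT, and its mean was higher in trained mice in 4 of them. In L6 IT nuclei it stood at 37.5, 32.3 and 34.4 CPM in trained mice 2, 4 and 6, against 17.7, 19.7 and 25.3 CPM in control mice 1, 3 and 5, a log2 fold change of 0.75 ± 0.19 (SE). That was the only other class in which its groups did not overlap (trained higher in 4.76% of the 11270 genes of L6 IT). The log2 fold changes were 0.75 ± 0.29 in L2/3 IT, 0.76 ± 0.30 in L4/5 IT and 0.26 ± 0.19 in L6 CT (SE). In microglia it stood at 370, 498 and 377 CPM in the trained mice, against 408, 429 and 445 CPM in the controls, a log2 fold change of -0.04 ± 0.14 (SE). None of the 5 passed, with the smallest adjusted p at 0.992.

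Prrg1 was fitted in 12 other classes, with a higher mean in trained mice in 2 of them, L2/3 IT and oligodendrocyte precursors. Its groups separated in L5/6 NP alone, at 18.0, 17.4 and 18.3 CPM in trained mice 2, 4 and 6, against 24.1, 22.4 and 24.3 CPM in control mice 1, 3 and 5. The log2 fold change there was -0.40 ± 0.23 (SE), on 13 to 50 UMIs per mouse, and 4.09% of the 10144 genes of that class had all trained mice below all controls. In oligodendrocytes, where it is abundant, it stood at 99.5, 84.6 and 130 CPM in the trained mice, against 109, 110 and 114 CPM in the controls. None of the 12 passed, with the smallest adjusted p at 0.895.

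The other 3 members gave no call in any class either. Galnt18 in Vip interneurons stood at 273, 285 and 265 CPM in trained mice 2, 4 and 6, against 217, 203 and 211 CPM in control mice 1, 3 and 5, a log2 fold change of 0.38 ± 0.15 (SE) with an adjusted p of 1.00. Its groups did not overlap, as for 5.13% of the 7609 genes of Vip nuclei. In microglia it was at -1.04 ± 0.45 (SE, log2) on 3 to 37 UMIs per mouse, with an adjusted p of 0.532. Inpp4b had its largest unadjusted evidence in L5/6 NP, with a log2 fold change of 0.48 ± 0.20 (SE), an unadjusted p of 0.0324 and overlapping groups. Cul4b had trained mice above all controls in Lamp5 interneurons and astrocytes. In Lamp5 nuclei it stood at 45.7, 33.5 and 59.3 CPM in the trained mice, against 23.0, 26.0 and 29.8 CPM in the controls, on 11 to 14 UMIs per mouse. A single nucleus held 7 of the 11 UMIs of trained mouse 2, and another held 10 of the 14 of trained mouse 6, against at most 2 in any other mouse (log2 fold change 0.78 ± 0.36, SE; 5.61% of genes there had trained mice above all controls). In astrocytes the log2 fold change was 0.27 ± 0.15 (SE; 6.13% of genes). Its smallest unadjusted p was in L6 IT, where it was at -0.48 ± 0.17 (SE, log2; unadjusted p of 0.0128, adjusted p of 1.00), followed by Lamp5 (0.0416) and oligodendrocytes (-0.49 ± 0.23, unadjusted p of 0.0458). The groups overlapped in L6 IT and in oligodendrocytes. In Sncg interneurons Cul4b had trained mice below all controls, at -0.47 ± 0.32 (SE, log2; 4.01% of genes). Over the 16 other classes 30 gene calls were made (0.02% of 149910 tests), 29 of them in microglia (0.31% of its genes), and no member was among them.

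**Figure D2:**
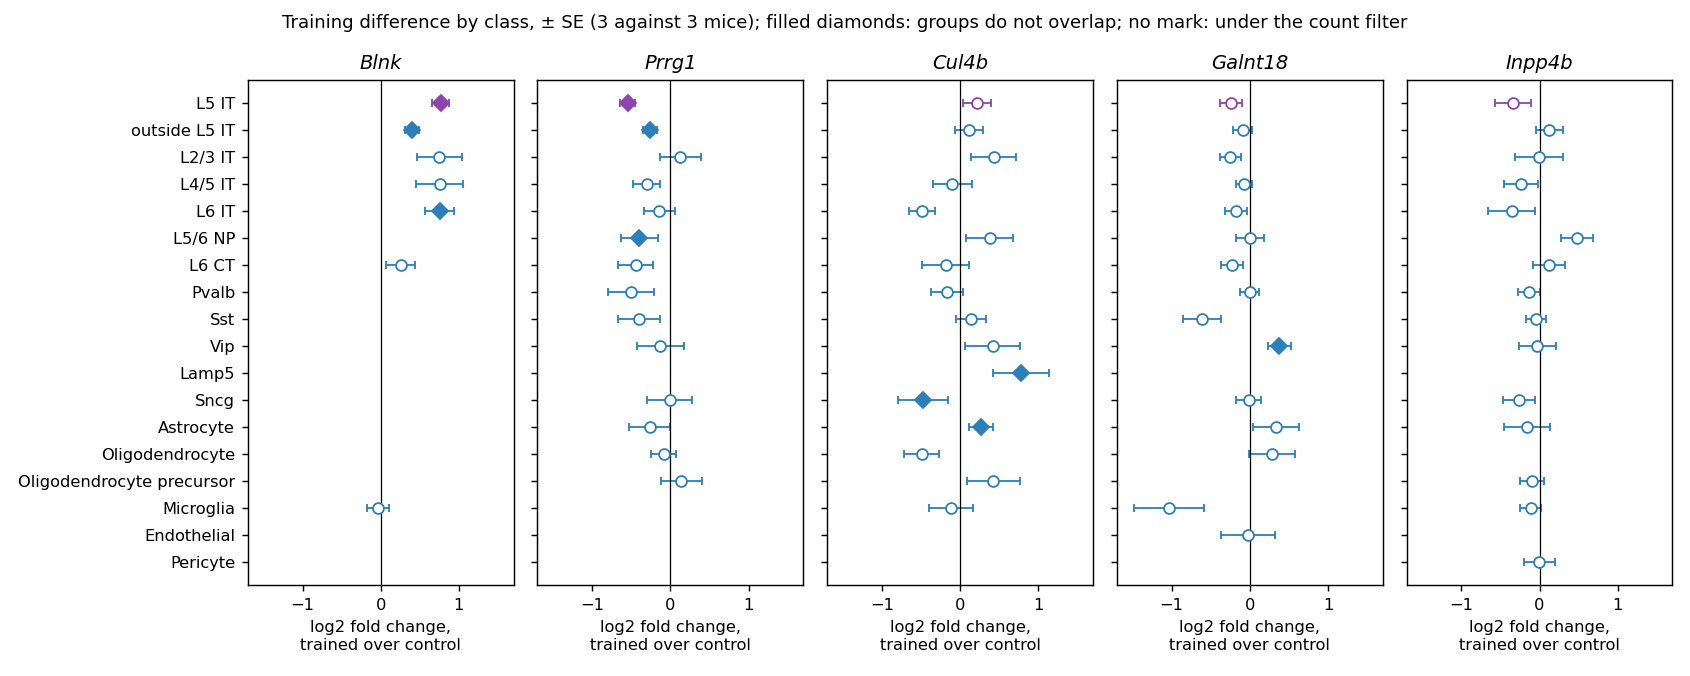
Log2 fold change of trained over control mice (horizontal axis, ± SE) for each gene in L5 IT nuclei (purple), in all nuclei outside L5 IT and in each other class in which it passed the count filter. Filled diamonds mark groups of 3 mice that do not overlap. Blnk is at 0.77 in L5 IT and 0.75 in L6 IT, and Prrg1 at -0.55 in L5 IT.

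L5 IT nuclei were also set against the mean of the other 5 glutamatergic classes in all 6 mice, with mouse as a block. Levels by class may have been in view when the genes were chosen, so the members' values are a description with no p. Of the 13504 genes tested with edgeR, 18.6% were called higher in L5 IT at an adjusted p under 0.05 and 18.4% were called lower. The median log2 difference of all genes was -0.015, and the share of genes above 0 was not computed. On the log2 scale Blnk was at 1.98 ± 0.09 (SE), Prrg1 at 1.46 ± 0.07, Inpp4b at 0.99 ± 0.09, Cul4b at 0.51 ± 0.11 and Galnt18 at 0.32 ± 0.05, all on the side of L5 IT. With L5 IT nuclei of another class left out, Galnt18 turned to -0.077, Cul4b went to 1.13 and Inpp4b to 0.58. Without TMM, 27.0% of the calls were higher against 50.3% with it, the median of all genes was -0.10, and all 5 members stayed above 0.

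Class by class, the differences of Blnk and Prrg1 were above 0 against each of the 5. At an adjusted p under 0.05 such contrasts called 21.8% of genes higher against L2/3 IT, 16.9% against L4/5 IT, 7.07% against L6 IT, 21.9% against L5/6 NP and 22.6% against L6 CT. These are stricter shares than those of genes above 0, which were not computed. For Blnk the log2 differences ran from 0.48 ± 0.10 against L6 CT to 4.22 ± 0.24 against L5/6 NP (SE). For Prrg1 they ran from 0.78 ± 0.09 against L4/5 IT to 2.19 ± 0.11 against L2/3 IT (SE). Inpp4b was above 0 against 4 of them and below 0 against L5/6 NP, at -1.29 ± 0.11 (SE), where 24.7% of genes were called lower. Cul4b was at -0.13 ± 0.14 against L2/3 IT and -0.08 ± 0.16 against L6 IT, and Galnt18 at 0.05 ± 0.06 against L6 IT and 0.13 ± 0.06 against L6 CT (SE). L5 IT nuclei had more median UMIs than the other 5 classes in every mouse, 12235 to 17412 against at most 12957, and the part of depth in the contrast was not tested.

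Across the 17 classes with at least 20 nuclei in every mouse the members differ in their peak. Blnk averaged 421 ± 47.2 CPM in microglia and 48.0 ± 14.3 CPM in L5 IT (SD over 6 mice), at rank 2. L6 CT (36.2 ± 7.33 CPM) and L6 IT (27.8 ± 8.13 CPM) followed, each overlapping the class above over the mice, while the interneuron classes lay between 0.776 and 1.10 CPM. Prrg1 was highest in oligodendrocytes (108 ± 15.0 CPM) and endothelial cells (106 ± 38.2 CPM), whose ranges overlap, then in oligodendrocyte precursors (56.6 ± 10.7 CPM) and L5 IT (42.2 ± 8.93 CPM). Its lowest class was microglia at 5.22 ± 3.26 CPM, the class highest in Blnk.

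Galnt18 led in Sncg (280 ± 45.3 CPM) and Vip (242 ± 36.0 CPM) interneurons, with L5 IT at rank 5, at 195 ± 35.8 CPM, overlapping its neighbours. Sst interneurons held 17.5 ± 5.72 CPM. Inpp4b led in pericytes (1463 ± 249 CPM) and microglia (943 ± 109 CPM), with L5 IT at rank 8, at 72.0 ± 20.8 CPM. Of the classes too small to rank, L6b, with 55 nuclei in all, had 1793 ± 766 CPM of Inpp4b and 424 ± 148 CPM of Galnt18, both above every ranked mean, and L5 ET had 205 ± 41.9 CPM of Galnt18. Cul4b was the flattest, from 22.3 ± 5.89 CPM in L4/5 IT to 51.8 ± 20.1 CPM in L2/3 IT, with every class overlapping the one above it.

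**Figure D3:**
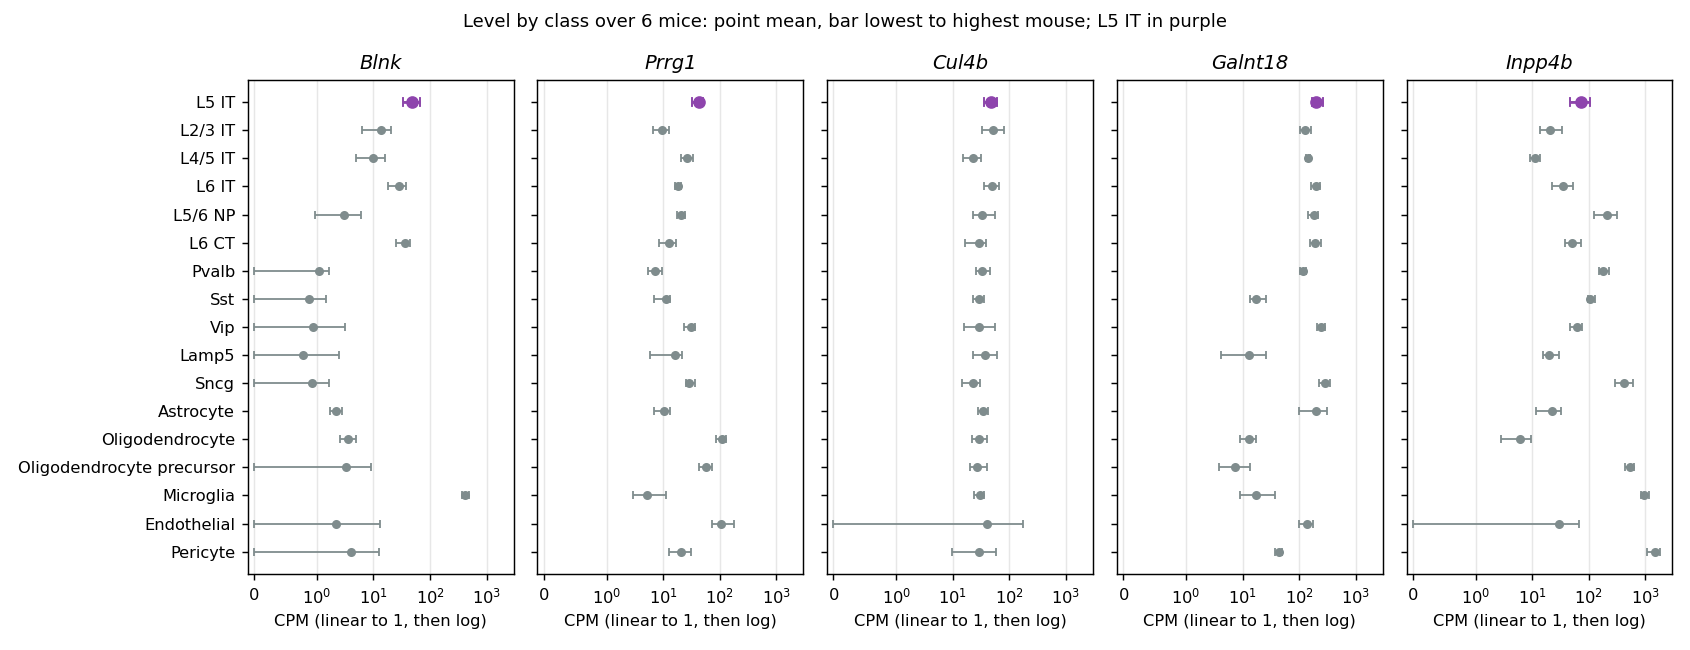
Level of each gene (horizontal axis, CPM, linear up to 1 and logarithmic above) in the 17 fitted classes over 6 mice, as the mean and the lowest to highest mouse, L5 IT in purple. Blnk reaches 421 CPM in microglia, Inpp4b 1463 CPM in pericytes, and Cul4b stays between 22.3 and 51.8 CPM.

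Genes with the most similar profile were read from Pearson correlations of log2(CPM + 1) over the same 17 classes, among 13867 genes, whose points share libraries and depth. For Blnk they were Tet3 (r of 0.94), Rgs14 (0.91) and Btbd19 (0.91), each highest in microglia, as Blnk was. Rgs14 reached only 14.0 CPM and Btbd19 10.1 CPM there, near the 10 CPM needed to be compared. For Prrg1 they were Elovl7 (0.83), Grb14 (0.81) and Sh3tc2 (0.77). For Cul4b they were Polr3g (0.81), Mas1 (0.78) and Cdk5rap1 (0.77), for Galnt18 Tlcd2 (0.75), Lrrk2 (0.73) and Rara (0.72), and for Inpp4b Pkdcc (0.86) and Mss51 (0.79). Among themselves the members' correlations ran from -0.44 (Prrg1 with Cul4b) to 0.40 (Blnk with Cul4b).

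Cul4b was carried by few nuclei. In L5 IT, 80 of 3810 nuclei (2.10%) had 10 or more Cul4b UMIs, up to 66, and together held 57.4% of its UMIs. They numbered 16, 20 and 7 in trained mice 2, 4 and 6, against 14, 12 and 11 in control mice 1, 3 and 5, so every mouse had them. Without them Cul4b stood at 19.0, 19.4 and 24.1 plain CPM in the trained mice and 19.0, 18.9 and 20.8 plain CPM in the controls. Its variance over mean per nucleus was 15.7, against a median of 1.41 in 2223 genes of like mean, of which 5 were higher. For Inpp4b, 99 nuclei held 41.8% of its UMIs, and 41 of those nuclei came from control mouse 1. Its variance over mean was 14.7, against a median of 1.64 in 1602 genes of like mean, of which 3 were higher. By contrast no more than 5 L5 IT nuclei had 10 or more UMIs of Blnk or of Prrg1. Their variance over mean, 2.46 and 2.52, was still above that of 94.4% and 95.1% of genes of like mean. Leaving out the Cul4b-high nuclei gave log2 fold changes of 0.79 for Blnk and -0.56 for Prrg1.

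**Figure D4:**
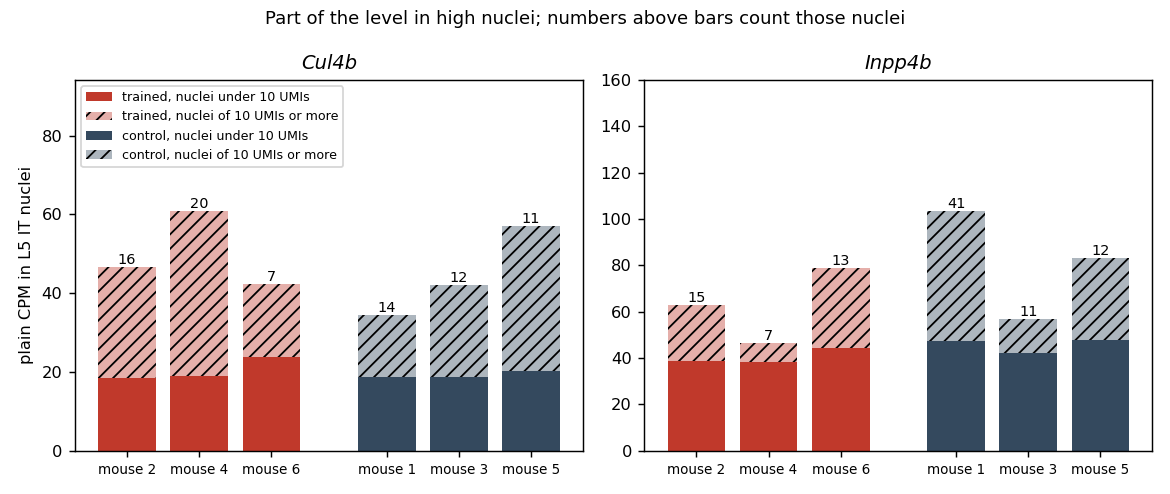
Level of Cul4b and Inpp4b in L5 IT nuclei of each mouse (vertical axis, plain CPM), trained mice on the left, split into nuclei under 10 UMIs (solid) and nuclei of 10 UMIs or more (hatched), with the number of the second kind above each bar. For Cul4b the hatched nuclei number 7 to 20 in trained mice and 11 to 14 in control mice.

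The Cul4b-high nuclei also differed from the rest in other genes. L5 IT is itself mixed, and Cul4b was uneven within it. In nuclei that also met the L4/5 IT rule, whose markers include Rorb, it averaged 26.6 plain CPM in trained and 17.1 in control mice, with the groups apart. In nuclei of no other class rule it averaged 78.3 and 64.4 plain CPM, with overlapping groups. The trained mean there rests on mouse 4, with 47.8, 128 and 58.9 plain CPM in mice 2, 4 and 6. Control mice 1, 3 and 5 had 57.4, 65.4 and 70.6 plain CPM. The part of this mix in the differences was not tested. Within L5 IT, compared with the other nuclei of the same mouse by edgeR, 64 genes were higher (0.538% of 11894) and 187 lower (1.57%). C1ql3, a secreted synaptic protein gene, was higher by 1.08 ± 0.13, and Bdnf, a neurotrophin, by 0.94 ± 0.17 (SE, log2; adjusted p of 3.01e-13 and 4.80e-06), each in 6 of 6 mice. Rorb, a layer 4 transcription factor gene, was lower by -2.28 ± 0.16 and Hs3st4, a heparan sulfate sulfotransferase gene, by -1.76 ± 0.12 (adjusted p of 3.67e-41 and 2.20e-47), each lower in 6 of 6 mice. Of the other members, Galnt18 was lower by -0.46 ± 0.13 (adjusted p of 0.0196), and Blnk (0.56 ± 0.19, adjusted p of 0.121), Prrg1 and Inpp4b did not pass. Over the whole glutamatergic gate, which spans classes that differ in these genes, 210 nuclei had 10 or more Cul4b UMIs, and 1.16% of genes were higher and 2.2% lower in them. There Blnk was higher by 0.89 ± 0.15 (SE, log2; adjusted p of 2.05e-06, 6 of 6 mice) and Prrg1 by 0.55 ± 0.17 (adjusted p of 0.0470, 5 of 6 mice), while Galnt18 was at -0.23 ± 0.09 (adjusted p of 0.162) and Inpp4b at 0.08 ± 0.14. C1ql3, Bdnf, Rorb and Hs3st4 were picked after their values were seen, C1ql3 and Hs3st4 as the smallest p in each direction within L5 IT. Bdnf and Rorb were picked for the clearest known roles. Malat1 had a smaller p than Bdnf, at 205037 CPM in Cul4b-high L5 IT nuclei and 163733 CPM in the rest. It was higher in 6 of 6 mice (edgeR adjusted p of 7.77e-08), and its part in the other differences was not tested. Tnfaip6, next after C1ql3 by p, was higher by 2.06 ± 0.26 (SE, log2; edgeR adjusted p of 2.97e-12) but in only 3 of 6 mice. A small p in this test therefore need not mean that the mice agree. The Cul4b-high sums held 7 to 20 L5 IT nuclei per mouse.

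No pathway partner of any member passed the test of training in L5 IT nuclei: of 11, 11, 28, 17 and 33 listed genes tested for Blnk, Prrg1, Cul4b, Galnt18 and Inpp4b, 0 passed in either direction, beside 0 of all 14240 genes, and 1 had an unadjusted p under 0.05. The median log2 fold changes of the lists were -0.09, 0.03, -0.01, 0.13 and 0.03 in that order, against 0.00 over all genes. The B cell receptor gene Cd79a was under the filter, while Sh3kbp1 was at -0.22 ± 0.11, Vav3 at 0.20 ± 0.11 and Nck2 at 0.14 ± 0.08 (SE, log2). The one gene under 0.05 unadjusted was Galnt16, another enzyme that starts O-glycosylation. It stood at 95.0, 92.7 and 99.6 CPM in trained mice 2, 4 and 6, against 74.9, 74.7 and 53.7 CPM in control mice 1, 3 and 5, a log2 fold change of 0.49 ± 0.12 (SE), with an adjusted p of 1.00. Next in its list came St6galnac5 (0.28 ± 0.15) and Galnt7 (0.25 ± 0.15). For Prrg1 the smallest p were Mgp (0.88 ± 0.42), Yap1 (0.14 ± 0.12) and Prrg2 (-0.18 ± 0.21), for Cul4b Cand2 (-0.55 ± 0.40), Rnf7 (-0.27 ± 0.21) and Dcaf7 (0.13 ± 0.11), and for Inpp4b Sgk3 (-0.22 ± 0.12), Inpp4a (0.14 ± 0.08) and Pdk1 (-0.21 ± 0.13; log2 ± SE).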

How the data were processed

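Nuclei of 6 mice were measured by droplet single-nucleus RNA-seq with 3' capture. The authors deposited UMI counts, all whole numbers, in a single matrix; the reads were processed with Cell Ranger 4.0.0 and mm10, per the submitters' processing notes. How shallow and deep runs of a mouse were joined, and whether intronic reads were counted, are points not given in the sources used here. Deposited barcode and gene lists (other values) gave each nucleus its mouse, by the suffix named in the design text, and the gene names.

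Of 51926 barcodes, 51683 had at least 500 genes and under 5% mitochondrial UMIs; Scrublet, run per mouse in scanpy 1.11.5 at an expected 6%, marked 2391 doublets, and 49292 nuclei were kept. Barcode sequences shared by mice numbered 311. Classes were set by at least 3 UMIs of fixed markers within glutamatergic, GABAergic or other gates, with no clustering, and those with at least 20 nuclei in every mouse were fitted. Counts were summed per mouse and tested with edgeR 4.0.16 (quasi-likelihood, TMM, filterByExpr; R 4.3.3), with p-values adjusted by Benjamini-Hochberg over all genes of a fit at 0.05. DESeq2 1.42.0 was an alternative. Shares were tested by exact permutation over mice. The tests were checked on simulated counts with known changes. Mice are separate animals, so errors of training differences are between mice. The class contrast and the Cul4b-high comparison set sums of the same mice against each other. Intervals of counting error are not given. From each member's list of pathway genes, the text names the 3 of smallest p in L5 IT, and for likeness the 3 genes of highest Pearson r. Some results that these rules would name are not reported here.

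The members, lists and tests were chosen with earlier results of these data known.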

Additional observations from a re-analysis of the deposited data

Results flagged for a closer look

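The training difference of Cul4b ran in opposite directions in classes where its groups of mice did not overlap. It was higher in every trained mouse in Lamp5 interneurons (log2 fold change of 0.781) and in astrocytes (0.271), and lower in every trained mouse in Sncg interneurons (-0.470). The difference between these classes was not tested. In Lamp5 nuclei 1 nucleus held 7 of the 11 Cul4b UMIs of trained mouse 2 and 1 held 10 of the 14 of trained mouse 6, against at most 2 in any other mouse. Lamp5 and Sncg nuclei gave 10 to 26 Cul4b UMIs per mouse, and none of the 3 passed an adjusted p of 0.05.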

How the results depend on the processing

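Depth limits the members in small classes, such as Cul4b in Lamp5 nuclei with 11 to 14 UMIs per mouse. Settings with only nuclei without L5 IT marker UMIs, and without Cul4b-high nuclei, were chosen after seeing the data. Of 205 values of single genes under alternatives, 196 kept direction and were counted as unchanged, 6 reversed and 3 moved. Outside L5 IT, being counted as unchanged did not mean that a value stayed close to the main one. Galnt18 there was at -0.093 ± 0.12 (SE) and at -0.25 with median UMIs as covariate, and was counted as unchanged. Cul4b in the class contrast ran from 0.39 to 1.13 over the settings, against 0.51 ± 0.11 (SE) in the main fit. In L5 IT no setting changed the direction of Blnk (0.67 to 0.90) or Prrg1 (-0.71 to -0.48). The reversals were in values outside L5 IT and 1 class contrast. Outside L5 IT, Inpp4b was -0.10 with median UMIs as covariate and -0.092 to 0.27 leaving out each mouse (lowest without trained mouse 6). Cul4b was -0.056 to 0.28 leaving out each mouse, with -0.056 without trained mouse 4 and -0.027 without control mouse 1, and Galnt18 was -0.17 to 0.017, with 0.017 without control mouse 1. Galnt18 in the class contrast was -0.077 with nuclei of another class left out. Counts of called genes: in L5 IT 0, with 5 by DESeq2 and 3 without a filter; outside L5 IT 0, with 5 by DESeq2; in other classes 30, with 86 by DESeq2, 755 without a filter, 9 with doublets kept, 50 in nuclei without L5 IT marker UMIs, and 5 to 215 leaving out each mouse (5 without trained mouse 6, 13 without control mouse 1, 215 without control mouse 5). The class contrast called 4990 genes, 2705 without the mouse as a block and 3283 in control mice only. The causes were not tested. No paired analysis of training was possible because the groups share no mouse number. Mouse was a block only in the class contrast and in the Cul4b-high comparison. With median UMIs as covariate, in L5 IT Inpp4b was -0.68 and Cul4b 0.45.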
